A study of Mus musculus with 6 samples.

Results

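The genes described here encode the enzymes of the tricarboxylic acid (TCA) cycle, the carriers and enzymes that feed or drain it, and the shuttles that bring cytosolic NADH electrons to mitochondria. They are 33 of the 31529 genes in the deposited table, chosen by gene name, and every name was found there. All 33 passed the filter on low counts, with 118 to 73803 estimated counts in a library. RNA came from hearts of the outbred ICR stock, genotype WT, collected 16.5 days (E16.5) or 18.5 days (E18.5) into embryonic development, with no treatment given in the labels. The 3 libraries of each stage are described by the submitters as biological replicates. The sources used here do not say whether a library held 1 heart or a pool, nor from which litters. P-values therefore measure the spread between these libraries. In RNA from whole hearts, fewer cells of a type and less RNA per cell cannot be told apart.

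The TCA cycle in the mitochondrial matrix oxidises acetyl-CoA to carbon dioxide and passes the electrons to the respiratory chain as NADH and, at succinate dehydrogenase, directly to ubiquinone. Pyruvate carboxylase, glutamate dehydrogenase and malic enzymes exchange carbon with the cycle, and the malate-aspartate shuttle joins cytosolic and mitochondrial pools of malate, oxaloacetate, aspartate and glutamate. The heart before birth relies largely on glycolysis and lactate, and oxidative metabolism rises around and after birth. The members are nuclear genes, whereas chromosome MT encodes part of the respiratory chain that the cycle supplies.

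The libraries held 61443414 to 77237333 counts. Below, 3 values of a stage stand in the order of replicates 1, 2 and 3, and E16.5 stands before E18.5. Genes of chromosome MT took 41.4%, 19.9% and 35.0% of all counts against 33.5%, 26.7% and 25.2%. E16.5 replicate 2 therefore had the lowest share of all 6 libraries, while the other E16.5 libraries had the highest pair of shares. Xist and the Y-linked genes marked E16.5 replicate 1 and E18.5 replicates 1 and 2 as male and the rest as female. The 10 cardiomyocyte markers summed to 35649 to 43017 CPM (counts scaled to a common library size by the TMM method) in the earlier stage and 39830 to 47665 CPM in the later, so the tissue carried the markers of its label. None of the markers in the table for blood, vessel, connective tissue, fat, liver, lung or skeletal muscle cells was at 0 in all libraries.

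Short DNA motifs were looked up at the members' start sites as a description. Stretches are printed only for the core of the site bound by nuclear respiratory factor 1 (NRF1). NRF1 is a transcription factor known for its sites at genes of mitochondrial proteins. Windows of RefSeq on GRCm38.p6, from 250 bases before to 50 bases after a start, were found for 29 of the 33 members. The letters of the NRF1 core were GCGCA followed by any base and GCGC, searched on both strands. They stood in the windows of 4 of these 29 members (13.8%), and in 5.19% of the 27025 genes with a window. The stretches below, at most 30 bases each, show every copy in capitals, and are written 5′ to 3′ on the strand of the gene. None of the other motifs searched overlapped a printed core.
Sdha, first copy, chr13:74350319-74350348, minus strand: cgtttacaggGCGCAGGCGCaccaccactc
Sdha, second copy, chr13:74350276-74350305, minus strand: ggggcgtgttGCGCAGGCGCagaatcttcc
Sdha, last copy, chr13:74350231-74350260, minus strand: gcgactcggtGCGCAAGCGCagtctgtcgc
Sdhd, chr9:50603909-50603938, minus strand: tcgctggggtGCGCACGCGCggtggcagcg
Sucla2, chr14:73552759-73552788, plus strand: ctgcgtctctGCGCCTGCGCggtgcccagg
Dld, chr12:31351422-31351442, minus strand: cgtatatgttGCGCAGGCGCa
The cores of Sdha began 98, 55 and 10 bases before its start, that of Sdhd 79 bases before and that of Sucla2 17 bases before, while that of Dld began at base 40 after the start. The Sucla2 core matches on the opposite strand. In GENCODE, the window of Sdha also holds the first exon of the divergent gene Ccdc127, and that of Sdhd the first exon of Timm8b. The element AAGGTCA, bound by estrogen-related receptors, was in 3 of 29 windows (10.3%, Ogdh, Sdhd and Got1) against 5.38% of all genes. The CCAAT box was in 17 of 29 (58.6%) against 41.1% of all genes. These matches describe letters in a window and are no evidence of binding. The shares over all genes include genes that did not pass the filter on low counts, whereas all 33 members passed it. Shares over tested nuclear genes are given with the slopes below.

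The order of the levels was read from FPKM, which is scaled by transcript length, so that genes can be set beside each other. Idh2, the NADP-dependent isocitrate dehydrogenase of the matrix, led with 118, 394 and 147 FPKM against 169, 279.6 and 294 FPKM. Its stages overlapped completely, and the highest value belonged to E16.5 replicate 2. After it came Mdh1, the cytosolic malate dehydrogenase, with a mean of 100.4 FPKM over the 6 libraries, and Sdhb, the iron-sulfur subunit of succinate dehydrogenase, with 83.0 FPKM. Next in order were Mdh2, Sdhd, Sdhc, Idh3g, Cs, Idh3a and Ogdh, whose means lay between 73.5 and 48.1 FPKM. In all, 22 members had a mean of at least 10 FPKM.

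At the low end, 8 members had a mean under 5 FPKM and 3 of these under 1 FPKM. Pyruvate carboxylase (Pcx), which makes oxaloacetate from pyruvate, had a mean of 1.68 ± 0.43 FPKM in the earlier stage and 2.05 ± 0.38 FPKM in the later (SD, n = 3 each). The 3 malic enzymes differed: Me1, the cytosolic one, had a mean of 2.97 FPKM, the mitochondrial Me2 0.733 FPKM and the mitochondrial Me3 0.168 FPKM. Both glycerophosphate shuttle genes were low as well, with 2.31 FPKM for the cytosolic Gpd1 and 0.717 FPKM for the mitochondrial Gpd2. Most neighbours in this order had overlapping ranges: 2 of 32 neighbouring pairs did not overlap over the libraries, Pcx above Me2 and Gpd2 above Me3. Within libraries, the higher gene of the pair stood above its neighbour in all 6 for 7 pairs, these 2 included, such as Idh2 above Mdh1, Mdh2 above Sdhd and Ogdh above Fh1. A single member varied between libraries by 1.65-fold to 4.50-fold in FPKM, with a median of 2.47-fold. In TMM-scaled CPM the range was narrower, 1.26-fold to 3.59-fold with a median of 1.79-fold.

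**Figure D1:**
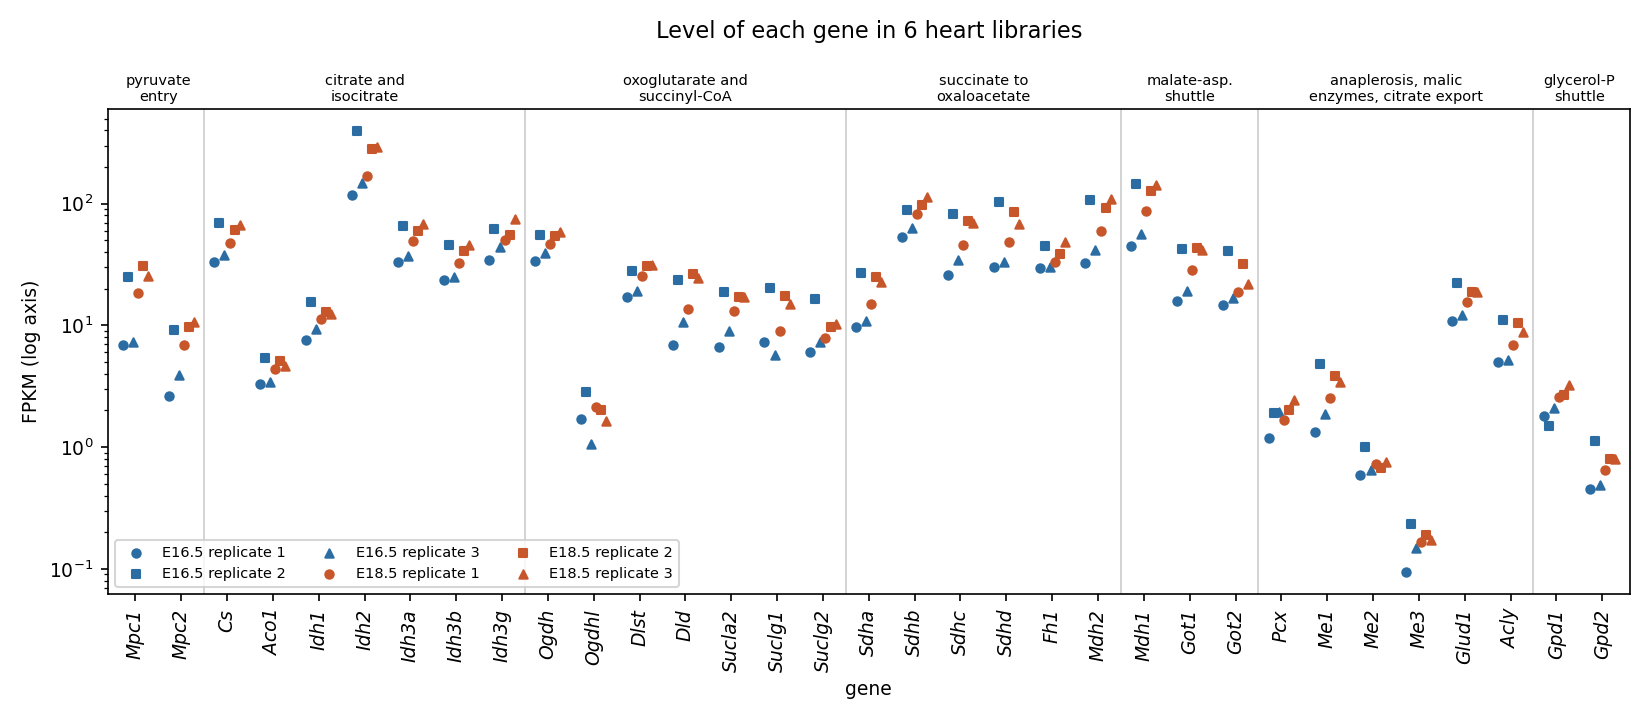
FPKM of each of the 33 genes (log axis) in the 6 libraries, 1 point per library, blue for E16.5 and orange for E18.5, grouped by role. Idh2 stands highest with 118 to 394 FPKM and Me3 lowest, and the blue square, E16.5 replicate 2, lies above the other blue points for nearly every gene. Part of this lies in the scaling of FPKM: Fh1 had 135 CPM in E16.5 replicates 1 and 2 but 29.4 and 44.8 FPKM. In CPM, E16.5 replicate 2 was still above both other E16.5 libraries in 31 of 33 genes.

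The study compared the stages, so the first question was whether the cycle's genes differed between E16.5 and E18.5. None of the 33 members passed the test, against 30 of 19959 genes overall (0.15%). By direction, 30 of 33 were higher at E18.5 in mean by any amount (49.8% of all tested genes were), and their median log2 change was 0.28, against -0.00 over all tested genes. Adjusted p-values ran from 0.359 to 0.995. At an unadjusted p under 0.05, edgeR gave 4 members, Sdhb, Dlst, Mpc2 and Mpc1, all higher at E18.5 (4.83% of all genes were), and none lower (4.7% of all genes were). The values of the members by role follow, in CPM for single libraries, since these enter the test.

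Pyruvate enters the matrix through a carrier built from the proteins of Mpc1 and Mpc2, and these 2 genes had the largest log2 stage differences of all members. Mpc1 stood at 19.5, 46.5 and 18.02 CPM against 45.4, 64.7 and 52.6 CPM. E16.5 replicate 2 exceeded the lowest E18.5 library, and the other E16.5 libraries lay far below all of E18.5. The log2 difference was 0.95 ± 0.35 (SE, adjusted p = 0.439). Mpc2 had 26.4, 59.8 and 34.3 CPM against 59.0, 70.9 and 77.2 CPM, again with E16.5 replicate 2 just above the lowest E18.5 library. Its log2 difference was 0.78 ± 0.28 (adjusted p = 0.431). In GENCODE M21 on GRCm38, Mpc1 lies at chr17:8282904-8297661 and Mpc2 at chr1:165460637-165481214, both on the plus strand.

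Citrate synthase and the isocitrate steps were nearer between stages, with log2 differences of 0.11 to 0.33 for the 7 genes. Cs, whose enzyme joins acetyl-CoA to oxaloacetate, had 259, 356 and 261 CPM against 319.9, 351 and 377 CPM. Idh3a, the catalytic subunit of the NAD-dependent isocitrate dehydrogenase, had 227, 294 and 223 CPM against 293, 303 and 341 CPM (log2 difference 0.33 ± 0.16, adjusted p = 0.549). Its stages overlapped by the narrow margin between E16.5 replicate 2 and E18.5 replicate 1. Idh3g, a regulatory subunit of the same enzyme, did not overlap: 126, 150.05 and 141 CPM against 157, 151 and 199.6 CPM. Idh2 had 414, 909 and 454 CPM against 511, 724 and 748 CPM, and differed by only 0.16 ± 0.31 on the log2 scale (adjusted p = 0.884). The other 3 genes of these steps, Aco1 (the cytosolic aconitase), Idh1 (the cytosolic isocitrate dehydrogenase) and Idh3b, had log2 differences of 0.16, 0.11 and 0.28.

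The oxoglutarate dehydrogenase complex turns oxoglutarate into succinyl-CoA, and its parts differed in how much they varied. Dlst, the succinyltransferase core, had 222, 237 and 220.01 CPM against 283, 297 and 293 CPM. Every E18.5 value was above every E16.5 value, and the spread within a stage was small (log2 difference 0.36 ± 0.13, adjusted p = 0.412). Ogdh, the dehydrogenase subunit, had 249, 269 and 255 CPM against 300.2, 298 and 314 CPM, also without overlap (log2 difference 0.24 ± 0.13, adjusted p = 0.578). Dld, the dihydrolipoamide dehydrogenase that this complex shares with pyruvate dehydrogenase, ranged more widely, with 34.4, 77.4 and 47.2 CPM against 58.8, 97.0 and 88.1 CPM. Its log2 difference was 0.62 ± 0.30 (adjusted p = 0.555). Ogdhl, a paralog of Ogdh, stayed between 5.28 and 10.6 CPM in all libraries.

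Succinyl-CoA ligase makes ATP or GTP according to its beta subunit. Sucla2, the ATP-forming one, had 35.8, 66.6 and 42.6 CPM against 60.9, 68.7 and 67.0 CPM (log2 difference 0.44 ± 0.22, adjusted p = 0.564). Suclg2, the GTP-forming one, had 38.0, 68.0 and 40.2 CPM against 43.0, 45.1 and 46.4 CPM (log2 difference -0.12 ± 0.22, adjusted p = 0.876). E16.5 replicate 2 was above all E18.5 libraries for Suclg2 and between them for Sucla2. Suclg1, the shared alpha subunit, differed by 0.29 ± 0.34.

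Succinate dehydrogenase is both a TCA cycle enzyme and a respiratory complex of 4 nuclear-encoded subunits. Sdhb had the smallest p of all members, with 163, 177 and 168 CPM against 216, 218 and 248 CPM. The stages did not overlap, and the log2 difference was 0.42 ± 0.13 (adjusted p = 0.359). The gene lies at chr4:140961203-140979193 on the plus strand of GRCm38. The other subunits overlapped: Sdha, the flavoprotein that oxidises succinate, had 54.0, 99.4 and 53.0 CPM against 72.7, 103 and 92.8 CPM. Sdhc, a membrane anchor, had 115, 239 and 132 CPM against 173, 233 and 221 CPM, and Sdhd, the other anchor, had 50.3, 113 and 48.6 CPM against 69.7, 106 and 82.0 CPM. In both anchors E16.5 replicate 2 was the highest library of all 6. Further along the cycle, fumarase (Fh1) was nearly level, with 135, 135 and 123 CPM against 131, 132 and 162 CPM. Mdh2, the malate dehydrogenase of the matrix, had 158, 339 and 178 CPM against 247, 327 and 381 CPM (log2 difference 0.50 ± 0.30, adjusted p = 0.622).

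The malate-aspartate shuttle uses a cytosolic and a mitochondrial copy of both malate dehydrogenase and aspartate aminotransferase. Mdh1 had 161, 347 and 178 CPM against 270.2, 337 and 371 CPM, a pattern over libraries close to that of Mdh2 (log2 difference 0.51 ± 0.29, adjusted p = 0.608). Got1, the cytosolic aminotransferase, had 54.5, 95.9 and 57.5 CPM against 84.3, 109 and 105 CPM (log2 difference 0.52 ± 0.23, adjusted p = 0.526). Got2, the mitochondrial one, had 96.8, 177 and 95.9 CPM against 107, 155 and 104 CPM, with means of 123 and 122 CPM. In each of these genes, E16.5 replicate 2 lay among or above the E18.5 libraries.

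Genes that feed or drain the cycle showed small differences, with log2 values of -0.11 to 0.28 for the 6 of them. Acly, which splits exported citrate in the cytosol, had 36.1, 51.9 and 32.8 CPM against 43.0, 55.0 and 46.2 CPM. Glud1, which makes oxoglutarate from glutamate, had 61.7, 83.5 and 61.3 CPM against 76.4, 79.2 and 77.7 CPM. For both, E16.5 replicate 2 was far above its stage mates, and for Glud1 it was the highest library of all. Me1, the malic enzyme that makes cytosolic NADPH, had 7.01, 16.6 and 8.58 CPM against 11.4, 14.7 and 13.0 CPM. Me2 had a log2 difference of -0.11 ± 0.19. In the glycerophosphate shuttle, Gpd1 had 7.19, 3.90 and 7.37 CPM against 8.95, 7.89 and 9.43 CPM. Here E16.5 replicate 2 was the lowest of all 6 libraries, and the stages did not overlap (log2 difference 0.51 ± 0.26, adjusted p = 0.569). An antisense gene, Gm16537, shares exon bases with Gpd1 at 17.5% of its CPM, and A930012O16Rik does so with Gpd2 at 18.5%. The sources used here do not say whether counting was by strand, so reads of these pairs may be mixed.

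In all, 5 members had every E18.5 library above every E16.5 library (Idh3g, Ogdh, Dlst, Sdhb and Gpd1), where 8.45% of all tested genes did. None had the reverse order (8.02% of all tested genes). The summed fibroblast markers were also higher in every E18.5 library (3744 to 4924 CPM) than in every E16.5 library (2221 to 3505 CPM), as were smooth muscle markers (581 to 659 against 371 to 490.1 CPM) and epicardial markers (142 to 193 against 85.8 to 99.1 CPM). Their part in the stage differences was not tested.

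**Figure D2:**
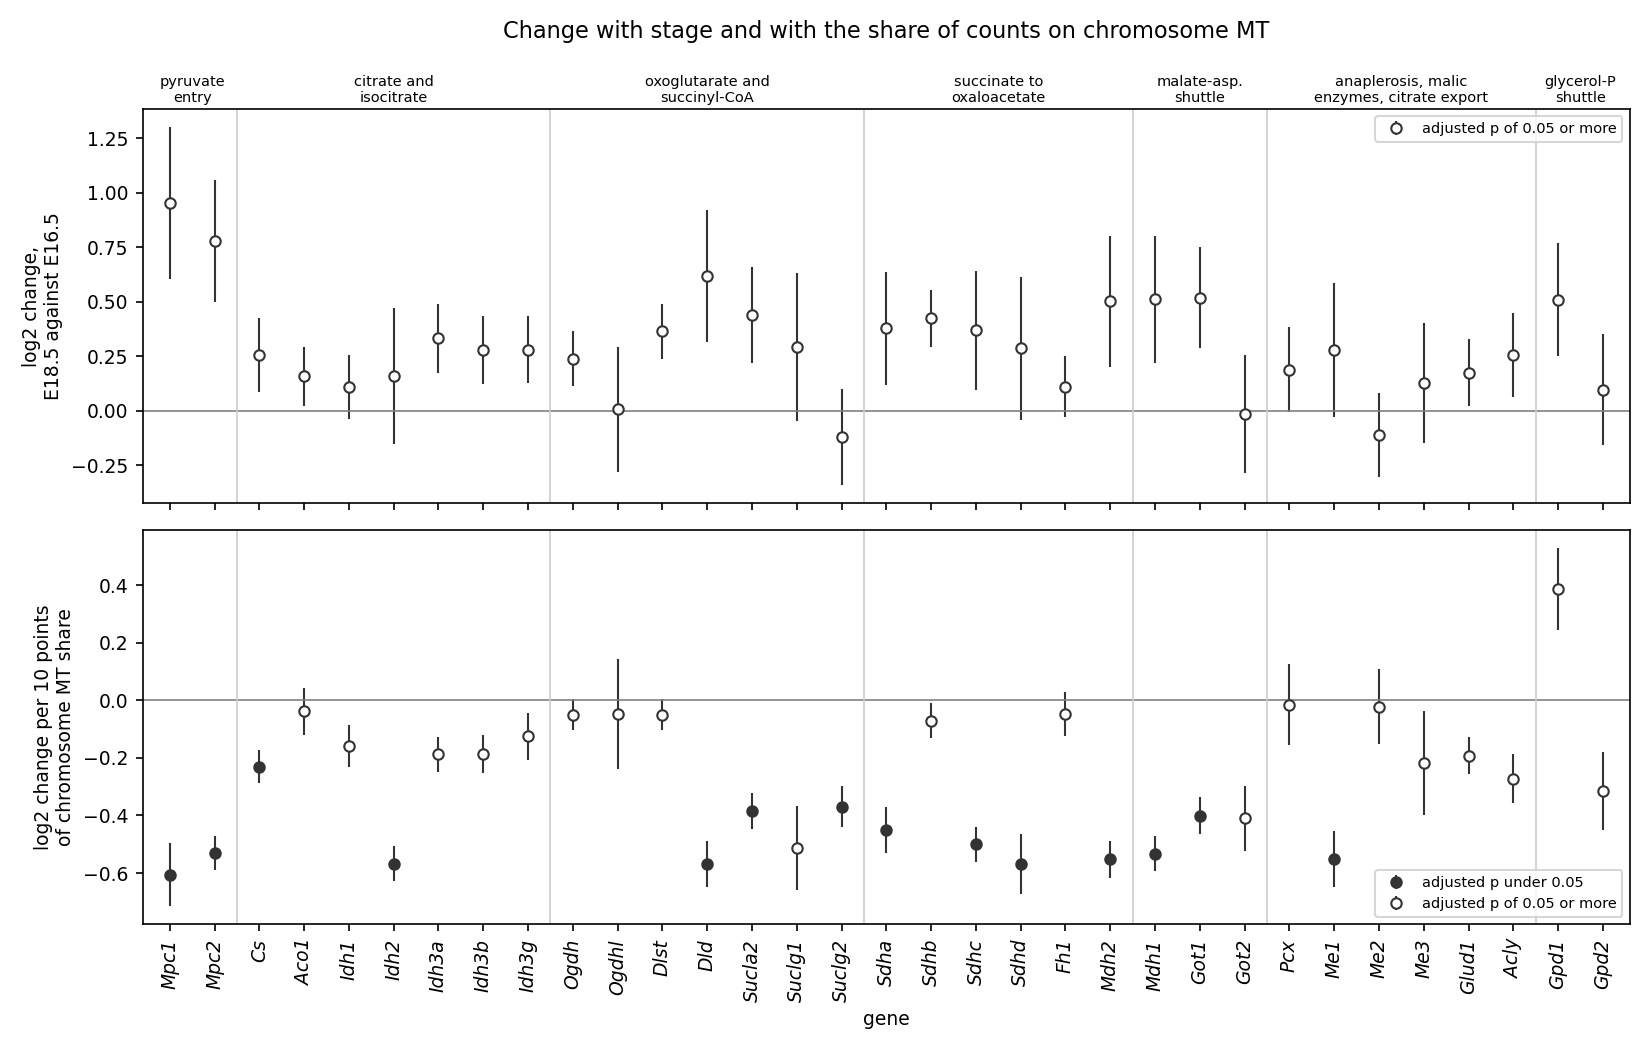
Upper panel, log2 change at E18.5 against E16.5; lower panel, log2 change per 10 percentage points of the chromosome MT share, for each of the 33 genes. Bars are standard errors and filled points have an adjusted p under 0.05: none in the upper panel and 14 in the lower, all below 0.

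In most members, 1 library stood apart from the others of its stage. E16.5 replicate 2 was above both other E16.5 libraries in 31 of 33 members, by a median of 1.51-fold over their mean, while the same ratio over all tested genes had a median of 0.984. It was the highest of all 6 libraries in 13 members (19.2% of all tested genes had their highest value there). E16.5 replicate 1 was the lowest of all 6 in 17 members (22.7% of all tested genes). The members together took 0.414%, 0.715% and 0.439% of the nuclear counts against 0.549%, 0.685% and 0.706%. The order of the 6 libraries by this percentage was the exact reverse of their order by chromosome MT share.

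Stage differences were also read on either side of a chromosome MT share of 30%. The shares still differed between stages on each side. Above 30%, the E18.5 library had 33.5% against 41.4% and 35.0%, and below it the E18.5 libraries had 26.7% and 25.2% against 19.9%. E18.5 thus had the lower share on the high side and the higher share on the low side. Above a share of 30%, E18.5 replicate 1 was higher than the mean of E16.5 replicates 1 and 3 in 33 of 33 members, with a median log2 difference of 0.32 (50.6% of all tested genes were higher, with a median of 0.01). Below 30%, E18.5 replicates 2 and 3 had a higher mean than E16.5 replicate 2 in 18 of 33, with a median of 0.03 (49.7% of all tested genes). Stage and share are not separated by this split, and each side has a stage with 1 library, so these values carry no test.

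Leaving out E16.5 replicate 2 brought 5 members past the test, all higher at E18.5 (1.2% of all tested genes were called higher). Mpc1 then had a log2 change of 1.53 (adjusted p = 0.0187) and Mpc2 of 1.19 (0.0330). Mdh1 reached 0.94 (0.0418), Got1 0.83 (0.0425) and Sucla2 0.74 (0.0425). The library left out was above both other E16.5 libraries in 31 of 33 members, so its removal lowers their E16.5 means by construction. These 5 calls are therefore a description. With the chromosome MT share as a further term and all 6 libraries kept, Mpc2 was the 1 member that passed, with a log2 change of 0.66 (adjusted p = 0.0176; 0.646% of all tested genes were called higher). Mpc1 then had a larger change, 0.85, with an adjusted p of 0.0604. With all 6 libraries and no such term, neither Mpc1 nor Mpc2 passed.

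The members' levels were next set against the chromosome MT share itself, with stage as a term and with library size and scaling taken over nuclear genes only, so that the share does not enter the denominator. Here 14 of 33 members were called, all lower in libraries with a larger share, where 5.71% of all 19849 nuclear genes tested were called lower and 4.48% higher. The slope was negative in 32 of 33 (49.6% of all nuclear genes), with a median of -0.27 log2 per 10 percentage points, against 0.00 over all nuclear genes. The called slopes corresponded to 1.17-fold to 1.52-fold lower levels per 10 percentage points. The result rests on E16.5 replicate 2, the library with the lowest share: without it, edgeR called no member and no gene at all (0.0%), and the members' median slope was -0.15. At an unadjusted p under 0.05, 720 genes then had a positive slope (3.47%) and 732 a negative one (3.52%), among them 1 and 6 members. Leaving out any other single library gave 10 to 14 calls, among which Idh2, Mdh1, Mdh2, Dld, Sdhc, Mpc2 and Got1 were always found. Over all nuclear genes, these fits called from 539 of 20720, without E18.5 replicate 1, to 1625 of 20705, without E16.5 replicate 3. Sdha, Sdhd and Mpc1 were not called without E18.5 replicate 1. Suclg1 was called without E16.5 replicate 1 or 3 and Got2 without E18.5 replicate 3, whereas Sucla2, Me1 and Suclg2 were not called without E16.5 replicate 1. Cs was called in none of the fits that left out a library, nor without the stage term or the filter on low counts.

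By role, the called genes were both pyruvate carrier genes (Mpc1 -0.61 ± 0.11 and Mpc2 -0.53 ± 0.06 log2 per 10 points), and of the citrate and isocitrate steps Cs (-0.23 ± 0.06, adjusted p = 0.0415) and Idh2 (-0.57 ± 0.06, adjusted p = 0.00514). Dld (-0.57 ± 0.08), Sucla2 (-0.39 ± 0.06) and Suclg2 (-0.37 ± 0.07) were called among the oxoglutarate and succinyl-CoA steps. Of succinate dehydrogenase, Sdha (-0.45 ± 0.08), Sdhc (-0.50 ± 0.06) and Sdhd (-0.57 ± 0.11) were called and Sdhb was not (-0.07 ± 0.06, adjusted p = 0.529). Both malate dehydrogenases were called with nearly equal slopes, Mdh2 at -0.55 ± 0.06 and Mdh1 at -0.53 ± 0.06. Got1 (-0.40 ± 0.06) and Me1 (-0.55 ± 0.10) complete the list. Got2 had a slope of the size of Got1 with a wider error (-0.41 ± 0.11, adjusted p = 0.0574), and Suclg1 likewise (-0.51 ± 0.15, adjusted p = 0.0605).

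Several other members had slopes near 0. Ogdh and Dlst each had -0.05 ± 0.05, Fh1 -0.05 ± 0.08 and Aco1 -0.04 ± 0.08. Of the other members not called, Idh3a, Idh3b and Glud1 each had -0.19 and Acly had -0.27, steeper than the called Cs. Gpd1 was the only member with a positive slope, 0.39 ± 0.14 (adjusted p = 0.125), and without E16.5 replicate 2 it was 0.00. A mean of at least 10 FPKM was found for 11 of the 14 called members and 11 of the 19 others. The NRF1 core printed above stood in 4 of the 13 called members with a promoter window and in 0 of the 16 others. Over all nuclear genes with a window it stood in 14.4% of 842 called lower and in 9.24% of 11550 not called. The CCAAT box was in 10 of 13 and 7 of 16 members (45.7% and 42.2% of all genes), and AAGGTCA in 2 of 13 and 1 of 16 (3.33% and 4.35%). As a description across genes, which are not independent replicates, the stage change of the members was smaller for longer transcripts (Pearson's r -0.57, Spearman's rho -0.55, n = 33). Over 15306 tested genes with a coding transcript, r was -0.00 and rho 0.00. This was the strongest of the correlations computed for the members with length, GC content and level. For the slope and length, r was 0.38 and rho 0.44 over the members, and 0.00 and 0.01 over those genes.

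**Figure D3:**
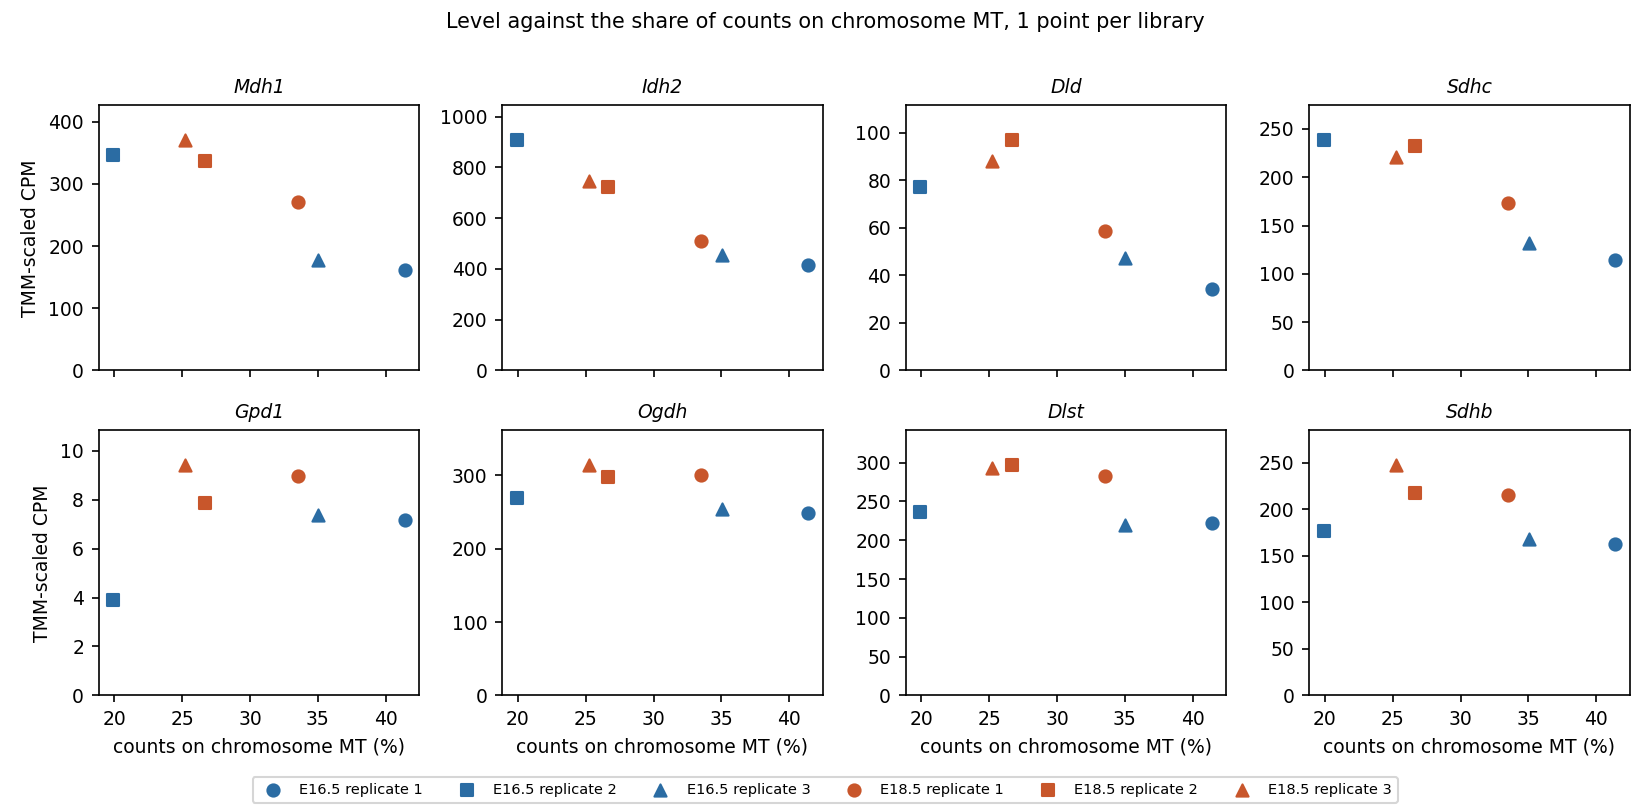
TMM-scaled CPM of 8 genes against the percent of counts on chromosome MT, 1 point per library, blue for E16.5 and orange for E18.5. Mdh1, Idh2, Dld and Sdhc (upper row) are low in the libraries with the largest share, whereas Ogdh, Dlst and Sdhb (lower row) are higher in every E18.5 library than in every E16.5 library, and Gpd1 is lowest in E16.5 replicate 2.

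Some cell markers were also called against the share, for which 5.71% of all nuclear genes were called lower and 4.48% higher. The erythroid markers summed to 9415, 23775 and 15483 CPM against 8987, 16696 and 21095 CPM, and 5 of 7 were called lower with a larger share. Of the 10 cardiomyocyte markers, 3 were called lower and 1 higher. The list for skeletal muscle was Myh3, Myh8, Myod1, Myog and Ckm, of which 4 of 5 are in the table. These summed to 212, 508 and 262 CPM against 395, 595 and 579 CPM, with 1 called lower. The sum was not split by gene, so it does not show that skeletal muscle cells were present. For endothelial markers 2 of 6 and for fibroblast markers 1 of 6 were called lower. No tested marker of smooth muscle, epicardium, macrophages, fat, liver or lung was called for the slope. The part of these cells, or of RNA quality, in the members' slopes was not tested.

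Because subunits of a complex are needed together, their ratios within a library were examined, which do not depend on scaling. These ratios were chosen after the values had been seen and are given without a test. The FPKM ratio of Sdhc to Sdhb was 0.486, 0.929 and 0.542 against 0.553, 0.737 and 0.614. That of Sdhd to Sdhb was 0.563, 1.16 and 0.525 against 0.587, 0.887 and 0.601. In both cases E16.5 replicate 2 was highest and E18.5 replicate 2 next, so transcripts of the membrane anchors and of the iron-sulfur subunit did not keep a fixed ratio between libraries. Dld to Dlst ranged from 0.401 to 0.848. By contrast, the ratio of Idh3a to Idh3b, subunits of the same dehydrogenase, stayed between 1.40 and 1.51 in all 6 libraries. Idh3b shares 5 exon bases with Nop56 on the other strand, which had 154% of its CPM.

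For 10 pairs of related genes, ratios were compared between stages by exact two-sided permutation tests, whose smallest possible p with 3 against 3 libraries is 0.1. No pair could therefore reach 0.05. Sucla2 over Suclg2 was 1.09, 1.13 and 1.23 against 1.64, 1.77 and 1.67, a log2 difference of 0.56 (exact p = 0.1, adjusted over the 10 pairs 0.5). All 3 E18.5 ratios were above all 3 E16.5 ratios. Got2 over Got1 went the other way, with 0.935, 0.970 and 0.879 against 0.666, 0.749 and 0.524, a log2 difference of -0.54 (exact p = 0.1, adjusted 0.5). Its stages did not overlap either. Got2 has near-identical copies, of which Gm10874 had 5.81% of its CPM, and Suclg2 has Gm15163 at 2.54%, so both ratios are uncertain to that extent.

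The remaining 8 ratios overlapped between stages, with exact p-values of 0.3 to 1. Idh2 exceeded Idh1 by 14.9-fold to 25.1-fold, and Ogdh exceeded Ogdhl by 19.4-fold to 36.6-fold. Mdh2 over Mdh1 stayed between 0.684 and 0.767 in every library, the narrowest of the 10 pairs. Mpc2 over Mpc1 lay between 0.311 and 0.540, Me2 over Me1 between 0.178 and 0.439 and Me3 over Me1 between 0.0479 and 0.0798. Gpd2 over Gpd1 was 0.753 in E16.5 replicate 2 and 0.233 to 0.300 in the other libraries. Idh3a over Idh2, the NAD-dependent against the NADP-dependent enzyme of the matrix, lay between 0.165 and 0.293.

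**Figure D4:**
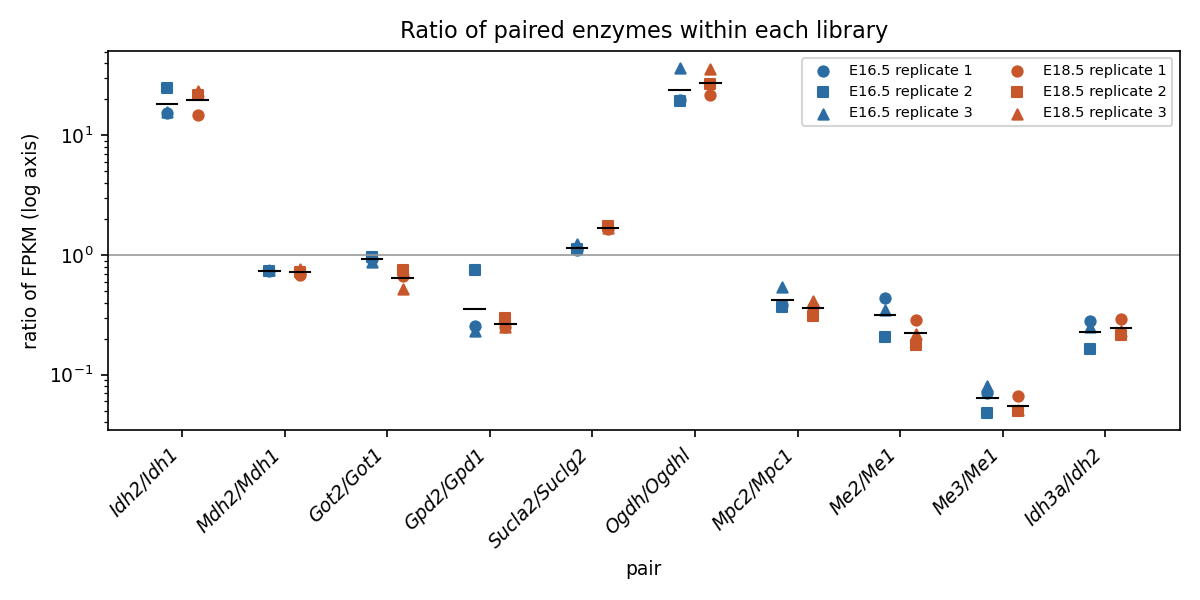
FPKM ratio of 10 pairs of genes within each library (log axis), 1 point per library, blue for E16.5 and orange for E18.5, with a black bar at the geometric mean of a stage. Sucla2/Suclg2 is higher and Got2/Got1 lower in all 3 E18.5 libraries, while Mdh2/Mdh1 hardly varies.

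The other genes of the pathway were taken from a list of 36, of which 33 were tested. They include pyruvate dehydrogenase, mitochondrial aconitase, assembly factors of succinate dehydrogenase, glutaminases and the carriers of citrate, malate, aspartate and glutamate. None was called between stages, 25 of 33 were higher at E18.5 and their median log2 difference was 0.12. The smallest p-values belonged to Pdhx, a structural part of pyruvate dehydrogenase, and to Adhfe1, a transhydrogenase of gamma-hydroxybutyrate. Their log2 differences were 0.75 ± 0.16 and 0.80 ± 0.18. Next came Pck2, the mitochondrial phosphoenolpyruvate carboxykinase that drains oxaloacetate, with -0.65 ± 0.14 (adjusted p = 0.185 for all 3). DESeq2 called these 3 genes and none of the other listed ones. It called 343 genes in all, from 31529 fitted without the filter on low counts. Since edgeR called 30 of the 19959 past that filter, the 2 totals have unlike denominators. DESeq2's default filter on mean count was kept, so its adjustment can cover fewer than the 31529 genes. Slc25a22, a mitochondrial glutamate carrier, had 0.51 ± 0.15 (adjusted p = 0.329). Pck2 had 37.9, 36.4 and 46.9 CPM against 27.9, 24.5 and 24.9 CPM, without overlap. Against the chromosome MT share, 7 of 33 were called lower (5.71% of all nuclear genes were) and none higher (4.48%). These were Dlat and Pdha1 of pyruvate dehydrogenase, Pcca and Pccb of propionyl-CoA carboxylase, the aspartate-glutamate carrier Slc25a13, the transhydrogenase Nnt and glutamine synthetase (Glul), with slopes of -0.29 to -0.71 log2 per 10 points. Without E16.5 replicate 2, none of the 7 and no gene at all was called for the slope. In the stage fit without that library, Pck2 was called lower at E18.5. That fit called 371 of 20888 genes in either direction, against 30 of 19959 with all libraries.

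Sdhb, the member with the smallest stage p, was also set beside all 5805 genes with a mean of at least 5 FPKM for the likeness of its profile over the 6 libraries. The genes with the highest Pearson's r of log2 FPKM were Fbrs (0.998), Rnf40 (0.996), Picalm (0.995), Arfgap3 (0.995) and Sgcb (0.994). None of them is a member or on the list of pathway genes. With 6 libraries that share their scaling, such values are a description.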

How the data were processed

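Per the labels' protocols, polyadenylated RNA was made into dUTP-stranded libraries with molecular identifiers and sequenced in pairs. The build mm9 and the tools StringTie 1.3.4d, HISAT2 2.0.4, cutadapt 1.9 and UMI-tools are named without their roles, per the submitters' processing notes. The authors deposited estimated counts per gene, written as whole numbers, and FPKM values, per the file headers. Estimates can divide reads between near-identical genes. Such copies, at least 90% identical over 300 bases, were found for 6 members, none above 10% of the member's CPM. The deposited coordinates were not used. Positions came from GENCODE M21 and RefSeq.

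The members, lists and rules were chosen with earlier results of these data known. The stage test was edgeR's quasi-likelihood test (edgeR 4.0.16, R 4.3.3, filterByExpr, TMM, 19959 genes). Levels are CPM after TMM. Slopes on the chromosome MT share were fitted over 19849 nuclear genes, with stage as a term. Benjamini-Hochberg adjustment ran over all genes tested, except in DESeq2, whose default filter on mean count was kept. A call needs an adjusted p below 0.05. The biological coefficient of variation was 34.3%. DESeq2 1.42.0, limma 3.58.1 on log2(FPKM + 1) and (FPKM + 0.1), other scalings and filters, sex, the replicate number and leaving out each library were alternatives. The scripts were tested on simulated data with less spread than these, which checks the code and not the power at the observed spread. Named members were those called and, within each role, those with the smallest stage p, the highest FPKM and the largest change. The other per-library values were chosen after they were seen.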

Additional observations from a re-analysis of the deposited data

How the results depend on the processing

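No member was called between stages with DESeq2's size factors, without the chromosome MT genes, without the filter on low counts, with DESeq2, with limma on FPKM, with sex as a term or with near-identical copies added. With the chromosome MT share as a term 1 was called, and without E16.5 replicate 2, 5. Leaving out 1 library at a time gave 0 to 5 calls, 27 to 32 members higher and median log2 changes of 0.17 to 0.43. Below a share of 30%, 18 members were higher, with a median of 0.026. On the FPKM scale with a pseudocount of 0.1, the median of all genes shifted to 0.12 and that of the members to 0.45.

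Slope calls numbered 9 members without the stage term, where 1346 of all 19849 genes were called. Without the filter they numbered 10 (803 of 31492 genes), and with scaling over all genes 14 (2076 of 19959 genes). Leaving out 1 library at a time gave 0 to 14 calls and medians of -0.37 to -0.15, the lowest count being without E16.5 replicate 2. Without that library 0 of all genes were called for the slope, against 2022 with it. The 30% split carries no test, and 6 libraries with 3 a stage limit every fit.

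The labels do not say whether the replicate numbers pair the libraries, and the values do not settle it. Correlations of same-numbered deviations from the stage means were 0.24, 0.33 and -0.08. E16.5 replicates 1 and 2 correlated best with their own number, and replicate 3 with E18.5 replicate 1 (0.25). With the replicate block, 0 members were called between stages (43 genes in all, against 30 without it). For the slope, 0 members were called (17 genes in all, against 2022 without it). The cause of these differences was not tested.

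Single members changed sign as follows, on the log2 scale. For Ogdhl, Gpd2, Me3, Pcx and Fh1, of these alternatives, signs were compared only on either side of a 30% share. Ogdhl, at 0.0079 in the stage fit, was -0.012 with the share as a term and scaling over nuclear genes. Without the chromosome MT genes, with DESeq2 and with the share as a term, 29 members were higher, against 30 in the main fit. Got2 was 0.12 in limma at a pseudocount of 1 with or without the filter and 0.13 at 0.1, 0.023 with sex as a term, 0.023 with the replicate block, 0.055 with copies added, and 0.15 above a 30% share. Suclg2 was 0.024 in limma at a pseudocount of 1 with or without the filter, 0.037 at 0.1, and 0.14 above a 30% share, where Me2 was 0.11. Below 30%, Ogdhl was -0.47, Idh2 -0.30, Gpd2 -0.29, Sdhd -0.27, Me1 -0.26, Suclg1 -0.18, Idh1 -0.16, Me3 -0.16, Glud1 -0.090, Sdhc -0.073, Acly -0.043 and Sdha -0.025. Leaving out 1 library at a time gave -0.23 to 0.34 for Got2, -0.28 to 0.20 for Suclg2 and -0.052 to 0.61 for Idh2. It gave -0.018 to 0.34 for the log2 difference of Idh2/Idh1, -0.064 to 0.019 for Mdh2/Mdh1, -0.72 to 0.12 for Gpd2/Gpd1 and -0.12 to 0.26 for Idh3a/Idh2. Ratios of counts and a pseudocount of 0.1 FPKM turned no pair.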
